A study of Mus musculus with 16 samples.

Results

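Acinar cells make up most of the exocrine pancreas, and their messages were followed here in RNA of isolated pancreatic islets through a list of 36 genes for digestive enzymes, granule proteins and acinar transcription factors. The genes were taken by symbol from the authors' deposited table of 10208 genes, in which 30 of the 36 had a row. Bhlha15, Ptf1a, Nr5a2, Prss1, Pdia2 and Amy2b had no row, so their expression was not analysed here. By the labels, adult mice carried the genotype Ins1-/-:Ins2f/f:Pdx1CreERT:mTmG on a mixed background that was mostly C57Bl/6, so every mouse lacked Ins1. In this genotype loxP sites flank Ins2, the other mouse insulin gene, CreERT is a recombinase activated by tamoxifen and driven by regulatory sequence of Pdx1, which in the adult pancreas is active mainly in beta cells, and mTmG is a fluorescent reporter of recombination. Tamoxifen was given 6 days before islets were isolated, and 7 samples were labelled Cre+T and 9 were labelled Cre-T. The labels give Pdx1CreERT to both groups and do not say what differed between them, nor whether each sample was 1 animal. The p-values therefore rest on a spread between samples that may be partly technical.

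The acinar cell makes digestive enzymes as inactive precursors or active hydrolases, packs them into zymogen granules and releases them into the duct when a meal stimulates it. Transcription of the enzyme genes is driven by PTF1, a complex of the basic helix-loop-helix factor PTF1A with a class A partner and RBPJL, an acinar form of the Notch effector RBPJ, together with NR5A2 and BHLHA15 (MIST1). Islets lie embedded in acinar tissue and are freed from it by enzyme digestion, so acinar messages are commonly found in islet RNA.

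The table held a fold change, a mean over all samples, a moderated t and p-values for each gene, and no value per sample. Values of single samples, ranges and overlap between groups can therefore not be given, and the depth of each library is unknown beyond the 20000000 pairs of 150-base reads per sample that the labels state. The direction of the fold change is not named in the table and was taken to be Cre+T relative to Cre-T, since the targeted Ins2 had a negative value of -0.47 ± 0.17 log2 units per the authors' deposited table. CreERT contains a hormone-binding domain of Esr1, and under this reading Esr1 had the table's highest fold change, 9.30 ± 0.39 log2 units (limma adjusted p = 5.4e-10), per the authors' deposited table. Both signs are thus assumed and test nothing, but the size of the Esr1 difference does not depend on the sign chosen. Whether the groups differed in carrying CreERT was not tested. Each error given with ± is a standard error, taken as the size of the fold change divided by t. Islet identity was clear from the endocrine genes, with Ins2, Iapp and Gcg ranking 1, 2 and 3 of 10190 genes by mean level per kilobase of exon. The sample titles open with 1 of 6 numbers of unstated meaning, and only 2 of these numbers, with 7 samples between them, occur in both groups. Without values per sample, no comparison within a number could be made.

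Acinar messages were abundant in the mean of all samples. By mean level in log2 CPM, which are counts scaled to library size, per kilobase of exon, 15 of the 30 genes were among the 100 highest of the table, and the median of the 30 was 8.19 beside 2.96 for all genes. Ctrb1, a chymotrypsinogen, ranked 4 by this level, directly after Gcg, with 12.69 log2 CPM per kilobase. It lies on chromosome 8 from 111686519 to 111691010 (GENCODE release M21 on GRCm38), as do the coordinates of all genes below. The trypsinogen gene Prss2 followed at rank 10 with 11.21 log2 CPM per kilobase. At the other end stood Rbpjl, with a level of -1.24 log2 CPM per kilobase and rank 10171. These ranks and levels are per length, and no test between genes was made, since all of them come from the same samples.

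By class, the median level was 8.99 log2 CPM per kilobase for the 14 proteases and 8.81 for the 5 lipases and colipase. The 5 granule and membrane proteins had a median level of 6.63, and the ribonuclease gene Rnase1 had a level of 7.61 log2 CPM per kilobase. The classes were not uniform inside. Proteases ran from 12.69 for Ctrb1 to 4.07 for the trypsinogen gene Prss3, and within granule and membrane proteins Sycn ranked 46 and the water channel gene Aqp12 8980 of all genes by this level. The 2 amylases lay far apart, with 9.14 for the pancreatic form Amy2a5 and 0.32 for Amy1, the form best known from salivary gland and liver, in log2 CPM per kilobase. Gatm, which encodes the first enzyme of creatine synthesis and is also active in kidney, had a level of 4.27, and Erp27, a protein of the endoplasmic reticulum that binds a disulfide isomerase, had a level of 2.08 log2 CPM per kilobase. Rbpjl was the only transcription factor of the 4 listed that had a row.

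**Figure D1:**
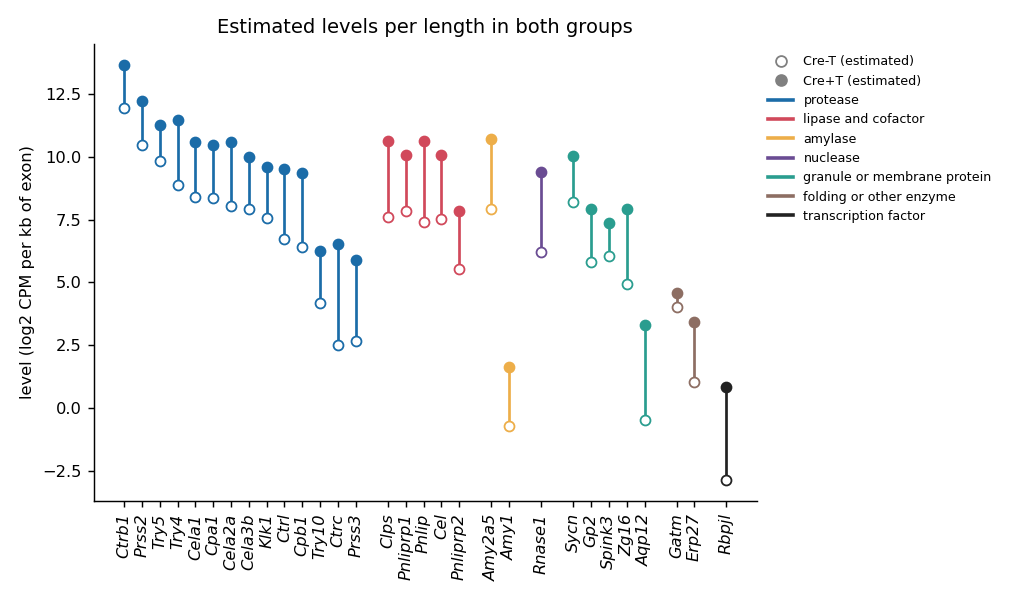
Estimated levels of 30 acinar genes per length in Cre-T (open circles) and Cre+T (filled circles), in log2 CPM per kilobase of exon, grouped by class; each line joins the 2 groups of a gene. The levels were derived from the authors' mean and fold change for groups of 7 and 9 samples; the Cre+T circle stands above the Cre-T circle for each gene, and Ctrb1 is the highest in both.

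All 30 genes with a row had a positive fold change, and 29 of them rose in Cre+T at a limma adjusted p under 0.05 in the authors' deposited table, where 17.6% of all genes were higher and 20.1% lower. None of the 30 fell by limma's adjusted p, nor at an unadjusted p under 0.05. With fold changes shifted so that the summed expression of both groups was equal, 8.42% of all genes were higher and 38.5% lower, and 27 of the 30 still rose. The median log2 fold change of the 30 was 2.37, beside 0.00 for all genes of the authors' deposited table. Of the 30, 28 passed with a rise of at least 1 log2 unit, beside 2.43% of all genes in the authors' deposited table. In bulk RNA, more acinar cells and more acinar RNA per cell cannot be told apart. The authors' filter on low genes is not given in the sources used, and a gene that is low in Cre-T may have entered the table only through Cre+T. The counts therefore describe the genes with a row and not the whole list. For 23 of the 30, the estimated Cre-T level was itself at or above the table's median mean of 5.21 log2 CPM, and all 23 of these rose.

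The chymotrypsinogen and elastase genes rose between 3.28-fold and 6.83-fold, except for Ctrc, which did not pass. Ctrb1 rose 3.28-fold, or by 1.72 ± 0.51 log2 units with limma's adjusted p at 0.016, per the authors' deposited table. Its estimated level was 11.76 log2 CPM in Cre-T and 13.47 in Cre+T. Ctrl, which encodes a chymotrypsin-like protease (chromosome 8, 105932003 to 105933862), rose by 2.77 ± 0.74 log2 units (limma adjusted p = 0.0097) per the authors' deposited table. The elastase genes Cela1, Cela2a and Cela3b rose by 2.19 ± 0.62, 2.52 ± 0.66 and 2.05 ± 0.57 log2 units per the authors' deposited table. Their 95% intervals overlapped over most of their length, running from 0.83 at the lowest bound to 3.92 at the highest. Ctrc, chymotrypsin C, which in humans breaks down trypsinogen, had the highest point value of the 30 and yet was the 1 gene that did not pass. Its log2 fold change was 4.01 ± 1.56, with a 95% interval from 0.71 to 7.32 and limma's adjusted p at 0.053 per the authors' deposited table. Its annotated span on chromosome 4, from 141814962 to 141846359, covers the whole of Cela2a on the same strand, and 305 bases of exon belong to both genes. Reads from those bases cannot be assigned to 1 gene, so the values of Ctrc and Cela2a are uncertain.

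Carboxypeptidase and kallikrein genes lay in the same range. Cpa1, carboxypeptidase A1, which trims aromatic and aliphatic residues, rose by 2.10 ± 0.61 and Cpb1, carboxypeptidase B1, which removes basic residues, by 2.93 ± 0.73 log2 units per the authors' deposited table. Limma gave them adjusted p of 0.015 and 0.0069 per the authors' deposited table. Klk1, tissue kallikrein, rose 4.01-fold, with a 95% interval of 1.74-fold to 9.24-fold (limma adjusted p = 0.013), per the authors' deposited table. Klk1 shares 14.4% of its stretches of 75 bases with other kallikrein genes, so part of its value may come from those.

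Trypsinogens, whose cleaved form activates the other zymogens in the gut, differed widely in level. The 6 listed genes lie in 1 cluster on chromosome 6, from the start of Try4 at 41302269 to the end of Prss2 at 41525079, inside the region of the T cell receptor beta genes. Prss2 rose by 1.75 ± 0.51 log2 units, which is 3.37-fold (limma adjusted p = 0.015) per the authors' deposited table. Try5 rose by 1.40 ± 0.46 and Try4 by 2.59 ± 0.67 log2 units per the authors' deposited table. Their mean levels were 10.46 and 10.02 log2 CPM per kilobase. Prss3 rose by 3.21 ± 0.99 and Try10 by 2.06 ± 0.78 log2 units, and their means over all samples were 3.78 and 4.85 log2 CPM, per the authors' deposited table. Try10 passed narrowly, with limma's adjusted p at 0.049 per the authors' deposited table, and no longer passed with fold changes centred on the ribosomal protein genes (adjusted p = 0.053) or with summed expression of both groups made equal (adjusted p = 0.054). Sequence is shared within the cluster. Of the stretches of 75 bases in the longest coding transcript, 53.9% in Prss3, 43.9% in Try4, 37.8% in Try5 and 24.7% in Try10 also occur in transcripts of other genes, and 0.945% in Prss2. The split of reads among the first 4 is thus uncertain, while Prss2 is almost free of shared stretches. The reads were pairs of 150 bases, longer than these stretches, so the shares are not shares of ambiguous reads.

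Lipid-digesting enzymes rose together. Pnlip, pancreatic triglyceride lipase, rose 9.14-fold, by 3.19 ± 0.77 log2 units, with limma's adjusted p at 0.0061 per the authors' deposited table. Clps, colipase, the small cofactor that anchors this lipase to fat droplets coated with bile salt, rose by 2.99 ± 0.75 log2 units (limma adjusted p = 0.0068) per the authors' deposited table. The estimated level of Pnlip went from 8.55 to 11.74 and that of Clps from 6.91 to 9.90 log2 CPM. Cel, the bile-salt-stimulated lipase, rose by 2.54 ± 0.70, and the lipase-related genes Pnliprp1 and Pnliprp2 by 2.24 ± 0.63 and 2.32 ± 0.63 log2 units per the authors' deposited table. No stretch of 75 bases of these 5 genes is shared with another gene. Pnlip, Pnliprp1 and Pnliprp2 are neighbours on chromosome 19, between 58652498 and 58777534, and the interval of Pnlip (1.55 to 4.83) overlaps those of the other 2 (0.90 to 3.58 and 0.98 to 3.65).

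Among amylases, Amy2a5 rose by 2.77 ± 0.74 log2 units, or 6.84-fold (limma adjusted p = 0.010), per the authors' deposited table. It is 1 of 5 Amy2a copies with a row, and 51.2% of its stretches of 75 bases are found in other copies. Amy2a2, Amy2a3 and Amy2a4, which are not on the list, had means of 11.07, 11.15 and 11.15 log2 CPM beside 11.13 for Amy2a5 per the authors' deposited table. Their log2 fold changes were 2.79, 2.79 and 2.83, next to 2.77 for Amy2a5, per the authors' deposited table. These near-equal rows cannot be read as separate measurements. Amy1 rose by 2.37 ± 0.68 log2 units (limma adjusted p = 0.014), with a mean over all samples of 2.10 log2 CPM, per the authors' deposited table. It holds no stretch shared with another gene's transcripts over 75 bases of its longest coding transcript, but 32.7% of its exon bases overlap those of Rnpc3 on the same strand, whose log2 fold change was 0.11 per the authors' deposited table. Rnase1, the secreted ribonuclease, rose by 3.20 ± 0.76 log2 units and had the smallest limma adjusted p of the 30, 0.0055, per the authors' deposited table.

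Granule proteins covered most of the range seen in the enzymes. Zg16, a lectin-like protein of the granule matrix, rose by 3.02 ± 0.79 log2 units (limma adjusted p = 0.0091) per the authors' deposited table. Gp2, the major glycoprotein of the granule membrane, rose by 2.09 ± 0.55 and Sycn, syncollin, by 1.80 ± 0.54 log2 units per the authors' deposited table. Spink3, the trypsin inhibitor packed with the zymogens, rose by 1.31 ± 0.39 log2 units, 2.47-fold (limma adjusted p = 0.017), per the authors' deposited table. It is the smallest rise of the 5 in this class, and its interval of 0.47 to 2.14 overlaps those of the other 4. Aqp12, an intracellular water channel of acinar cells, was at 3.79 ± 1.30 log2 units (limma adjusted p = 0.032) per the authors' deposited table. Its mean was only 1.30 log2 CPM, and 35 genes, 0.343% of the authors' deposited table, had a mean under 2. Erp27 rose by 2.37 ± 0.67 log2 units (limma adjusted p = 0.013) per the authors' deposited table.

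Gatm stood apart in size. It rose by 0.57 ± 0.21 log2 units, 1.49-fold, with limma's adjusted p at 0.040 per the authors' deposited table. Its 95% interval of 0.13 to 1.01 lay wholly below the intervals of 12 of the other genes, Pnlip, Rnase1 and Amy2a5 among them. This is a description, because the genes share their samples and the difference between a pair of genes could not be tested. Gatm no longer passed with fold changes centred on the ribosomal protein genes (adjusted p = 0.063) or with summed expression of both groups made equal (adjusted p = 0.099).

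**Figure D2:**
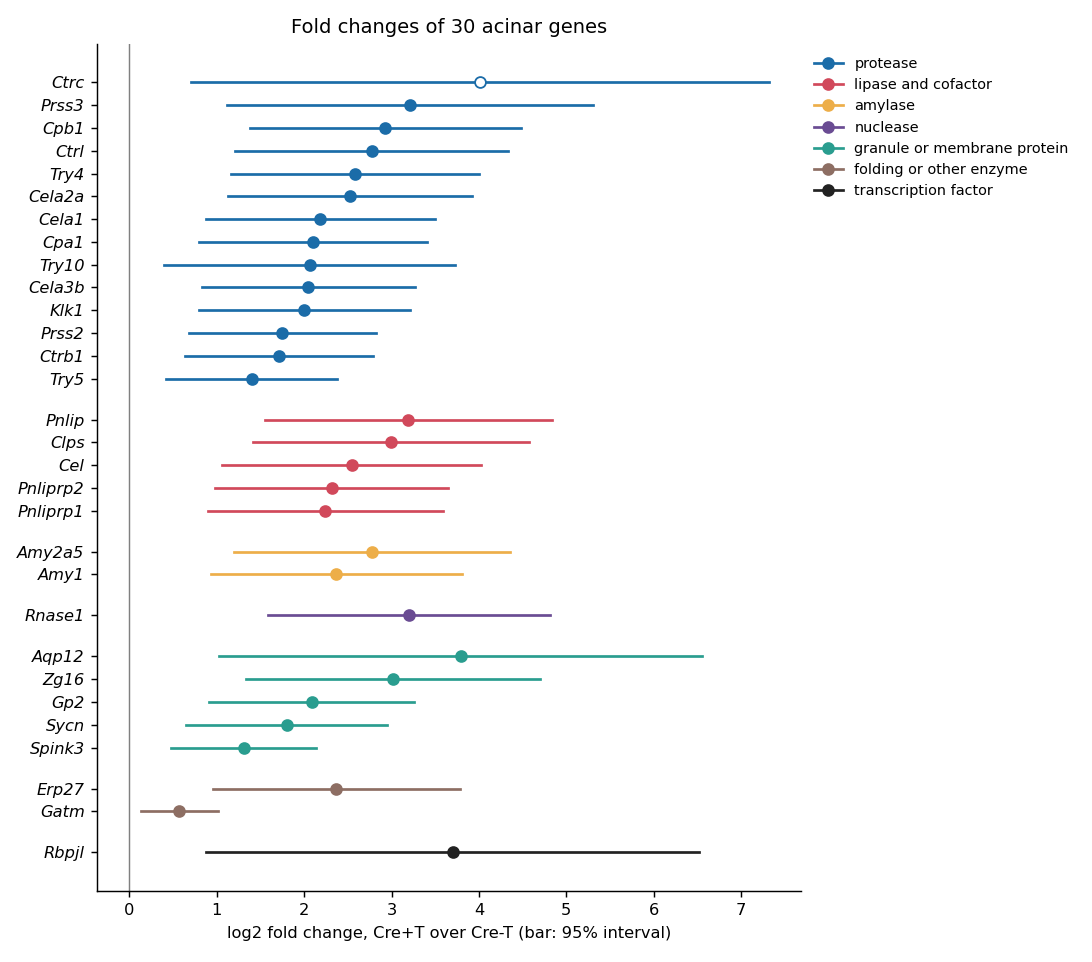
Log2 fold change of Cre+T over Cre-T for 30 acinar genes, by class, from the authors' deposited table; bars are 95% intervals, filled circles passed a limma adjusted p under 0.05 and the open circle, Ctrc, did not. Each interval lies above 0 before adjustment for many genes, and Gatm has the lowest value and the shortest bar.

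Of the transcription factors only Rbpjl could be followed. Rbpjl is on chromosome 2 from 164403141 to 164415448, and its log2 fold change was 3.70 ± 1.33 with a 95% interval of 0.88 to 6.52 (limma adjusted p = 0.039) per the authors' deposited table. Its mean of 1.27 log2 CPM was among the lowest of the authors' deposited table, and the estimated levels were -0.34 log2 CPM in Cre-T and 3.35 in Cre+T. At so low a level the fitted value may rest partly on the small offset that voom adds, which could not be checked without counts per sample. The fitted value therefore bounds no ratio. The same applies to Aqp12, estimated at -0.36 log2 CPM in Cre-T. Whether the other 3 factors changed was not analysed here.

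Promoters of the listed genes were searched for short letters of the factors named above, because all listed genes with a row had positive fold changes. RefSeq promoter sequence on GRCm38.p6, 250 bases before to 50 after the start site, matched 29 of the 36 genes with 31 promoters. The E-box letters CACCTG were found on either strand in 19 of these 31, or 61.3%, beside 20.2% of all 32851 promoters. The letters TTTCCCA of the RBPJ box were found in 5, or 16.1%, beside 8.06% of all. The letters AAGGTCA of an NR5A2 site were found in 4, or 12.9%, beside 4.72%, and the TATA box letters TATAAA in 12, or 38.7%, beside 13.6%. Amy2b, Bhlha15, Nr5a2, Pdia2 and Prss1, which have no row, are among the genes with CACCTG. Amy2b, Nr5a2 and Prss1 are also among those with TATAAA, and Prss1 among those with AAGGTCA. The shares are therefore not shares of genes that rose. Duplicated genes such as the trypsinogens have related promoters, so these shares are a description with no test, and a match is not shown to be a bound site. The 3 promoters that hold both CACCTG and TTTCCCA are shown, with that of Rbpjl as the factor gene of the list. They stand 5′ to 3′ along the gene, and capitals mark any of the 4 motifs on either strand.
Cel (lipase), chr2:28563354-28563653, minus strand: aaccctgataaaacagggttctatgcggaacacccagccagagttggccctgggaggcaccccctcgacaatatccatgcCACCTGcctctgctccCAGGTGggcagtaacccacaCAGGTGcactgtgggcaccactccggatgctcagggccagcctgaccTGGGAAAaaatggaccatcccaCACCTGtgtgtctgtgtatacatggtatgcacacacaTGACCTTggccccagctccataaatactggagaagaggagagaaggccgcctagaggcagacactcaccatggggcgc
Cela2a (elastase), chr4:141825956-141826255, minus strand: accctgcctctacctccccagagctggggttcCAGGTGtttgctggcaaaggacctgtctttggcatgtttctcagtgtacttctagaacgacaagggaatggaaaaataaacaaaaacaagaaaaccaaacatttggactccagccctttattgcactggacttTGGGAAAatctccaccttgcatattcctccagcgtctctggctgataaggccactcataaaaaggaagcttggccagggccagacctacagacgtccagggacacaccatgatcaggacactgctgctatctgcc
Prss2 (trypsinogen), chr6:41521526-41521825, plus strand: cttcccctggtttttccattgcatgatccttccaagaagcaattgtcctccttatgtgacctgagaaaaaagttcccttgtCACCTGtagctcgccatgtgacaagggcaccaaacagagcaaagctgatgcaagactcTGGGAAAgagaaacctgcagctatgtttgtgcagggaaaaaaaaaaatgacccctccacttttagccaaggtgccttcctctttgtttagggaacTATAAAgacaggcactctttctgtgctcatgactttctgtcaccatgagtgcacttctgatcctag
Rbpjl (transcription factor), chr2:164402944-164403243, plus strand: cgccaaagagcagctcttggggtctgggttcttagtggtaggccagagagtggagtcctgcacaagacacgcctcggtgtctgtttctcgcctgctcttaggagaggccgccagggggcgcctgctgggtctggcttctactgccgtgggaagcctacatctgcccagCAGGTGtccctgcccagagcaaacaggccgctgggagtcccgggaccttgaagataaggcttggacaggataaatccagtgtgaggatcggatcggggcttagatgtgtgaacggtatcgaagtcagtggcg
In Cel, 4 copies of the E-box letters begin 170, 154, 134 and 65 bases before the start site, around an RBPJ box that begins 87 bases before it, and the NR5A2 letters begin at 28. In Cela2a the RBPJ box begins 85 bases before the start site and the E-box 218. In Prss2 they begin at 111 and 169, and Rbpjl has 1 E-box, at 82. Cel, Cela2a and Prss2 rose by 2.54, 2.52 and 1.75 log2 units, and Pnlip and Gp2, whose promoters hold neither run of letters, by 3.19 and 2.09, per the authors' deposited table. Pnlip and Gp2 are picked examples. Among the genes with CACCTG and a row, log2 fold changes ran from 0.57 for Gatm to 3.79 for Aqp12. Whether the letters go with the size of the rise was not tested.

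The spread between samples was wide for this list. The median standard error of the 30 genes was 0.67 log2 units, beside 0.10 for all genes, and 0.852% of the table had a standard error at or above that median. Of the 30, 29 were in the upper 5% of the table by standard error and 18 were among its 100 largest, while Gatm, with a standard error of 0.21, was at percentile 88.5. If all 16 samples entered the fit with equal weight, the median standard error of the 30 corresponds to an SD between samples of a group of 1.33 log2 units, or 2.51-fold. The same figure for all genes is 0.20 log2 units, or 1.15-fold. The 220 other genes that rose by at least 1 log2 unit per the authors' deposited table had a median standard error of 0.36.

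Errors grew with the size of the change. Over the 30 genes the rank correlation between log2 fold change and standard error was 0.93, and over the 23 whose mean reached 5 log2 CPM it was 0.99. These are correlations across genes of the same samples, which are not independent, and they carry no test. The moderated t consequently moved little, from 2.57 for Ctrc to 4.21 for Rnase1 per the authors' deposited table, although the log2 fold changes ran from 0.57 to 4.01. The rank correlation of the mean in log2 CPM was -0.36 with log2 fold change and -0.45 with standard error over the 30, and that with log2 fold change was -0.07 over the 23. By class, the median standard error was 0.64 for proteases, 0.70 for lipases and colipase, 0.71 for amylases and 0.55 for granule and membrane proteins. The largest belonged to Ctrc (1.56), Rbpjl (1.33) and Aqp12 (1.30), all with a mean under 5 log2 CPM per the authors' deposited table. Only at these 3 genes did the SD between samples implied by the error exceed 2 log2 units.

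**Figure D3:**
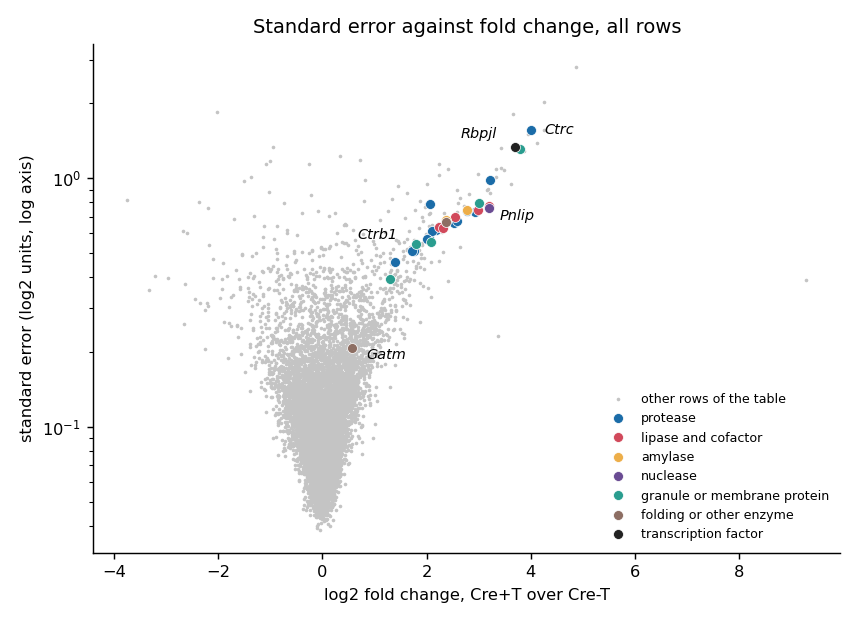
Standard error (log axis, log2 units) against log2 fold change for all rows of the authors' deposited table (grey) and the acinar genes (coloured by class). Most of the acinar genes lie in a narrow band in which the error grows with the fold change, above the bulk of the table, and Gatm lies inside the bulk.

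Taken as a share of expression, the 30 genes made up an estimated 1.27% of the summed linear expression of all genes in Cre-T and 5.20% in Cre+T, a ratio of 4.09. These sums were built from group means of log2 values, with 7 and 9 samples, and carry no error. They are shares of counts and not of molecules, since a longer gene collects more counts. Within the sum, proteases went from 74.7% to 65.0%, lipases and colipase from 12.6% to 18.0%, and amylases from 8.35% to 12.6%. The copies Amy2a1 to Amy2a4 are not on the list and not in the sum. The class shares therefore depend on which amylase copies were listed and on how reads were split among them. Ctrb1 alone was 29.9% of the sum in Cre-T and 21.7% in Cre+T. The intervals of the fold changes overlap between these classes, and a difference between classes could not be tested on genes of the same samples.

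Other acinar genes were higher as well. A further 24 acinar genes were drawn up, of which 19 had a row, 13 rose, none fell and 6 did not pass, with a median log2 fold change of 1.68 per the authors' deposited table. The smallest p belonged to Tmed6, a cargo receptor of the early secretory pathway (1.52 ± 0.31), and Cckar, the receptor for cholecystokinin (1.90 ± 0.48), per the authors' deposited table. The 6 that did not pass were Reg3b (1.30), Reg3g (1.19), Nupr1 (-0.71), Muc1 (0.59), Serpini2 (4.87) and Fkbp11 (0.06 log2 units), of which only Nupr1 had a negative value per the authors' deposited table. A list of 18 genes of acinar stimulus, exocytosis and broadly expressed factors was drawn up beside it. Of its 13 genes with a row, 3 rose (23.1%, beside 17.6% of all genes), none fell and 10 did not pass, with a median of 0.13 per the authors' deposited table. The 3 were Cckar again, the calcium sensor gene Syt1 (0.59 ± 0.15) and Xbp1, a factor of secretory cells (0.33 ± 0.11), per the authors' deposited table. Endocrine cells also express most of these genes.

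Markers of other cells are given beside the 17.6% of all genes that were higher and the 20.1% that were lower. Of 8 red blood cell genes 4 had a row, of which 3 rose, with a median of 3.37 log2 units, per the authors' deposited table. Hbb-bs (3.22 ± 0.87), Hba-a1 (3.32 ± 1.02) and Hba-a2 (3.42 ± 1.10) had errors as wide as those of the acinar genes per the authors' deposited table, and copies of globin genes share reads. The summed estimated level of the 4 genes, Hbb-bt included, went from 17.3 CPM in Cre-T to 173 CPM in Cre+T. Of 16 ductal markers 12 had a row, of which 2 rose (16.7%), 1 fell and 9 did not pass (median 0.25) per the authors' deposited table. Epcam (0.66 ± 0.13) and Krt8 (1.13 ± 0.32) rose, and Krt7 fell by 0.29 ± 0.11 per the authors' deposited table. The duct markers Krt19 (0.69 ± 0.50) and Spp1 (-1.15 ± 0.58) lay in opposite directions and did not pass per the authors' deposited table. The summed level of the ductal list was 3128 CPM in Cre-T and 3377 in Cre+T. Of 12 leukocyte genes 7 had a row, of which 2 rose (28.6%), C1qa (1.21 ± 0.18) and Cd74 (1.35 ± 0.25), while Lyz2 (0.61 ± 0.25) did not pass, per the authors' deposited table. The summed level of the 7 was 125 CPM in Cre-T and 225 in Cre+T. Of 10 endothelial genes 1 rose, Plvap at 1.99-fold, and Cdh5 (0.41 ± 0.20) and Tie1 (0.39 ± 0.22) did not pass per the authors' deposited table. Of 8 stellate cell and fibroblast genes 1 rose, a share of 12.5%, and 1 fell. Dcn rose (1.56 ± 0.55), Pdgfrb fell (-0.94 ± 0.35) and Acta2 (1.20 ± 0.61) did not pass per the authors' deposited table. The summed levels went from 469 to 599 CPM for the endothelial list and from 271 to 281 CPM for the stellate and fibroblast list. Neither of the 2 adipocyte and mesothelial genes with a row, Msln (-0.39 ± 0.37) and Fabp4 (0.15 ± 0.42), passed per the authors' deposited table.

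The endocrine genes had smaller fold changes. Of 18, 6 rose (33.3%, beside 17.6% of all genes), 2 fell (11.1%, beside 20.1%) and 10 did not pass, with a median of 0.13 log2 units, per the authors' deposited table. The 3 with the smallest p were the granin gene Chga (1.39 ± 0.18), the convertase gene Pcsk1 (0.92 ± 0.12) and Pdx1 (0.57 ± 0.11) per the authors' deposited table. The summed estimated level of the 18 was 158538 CPM in Cre-T and 152910 in Cre+T, with Ins2 included. Ins2, with the highest mean of all genes (16.34 log2 CPM) and a log2 fold change of -0.47 ± 0.17, weighs most in this sum. The lower sum in Cre+T therefore does not describe the other endocrine genes. The part of acinar, blood or duct cells in any of these differences was not tested.

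**Figure D4:**
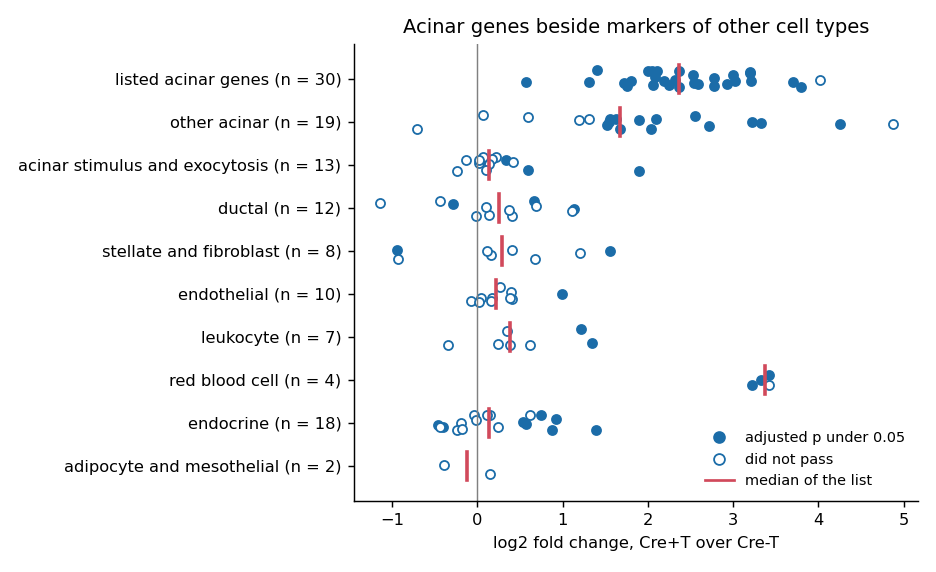
Log2 fold change of Cre+T over Cre-T for the listed acinar genes and for 9 other gene lists, from the authors' deposited table; each circle is a gene, filled where the limma adjusted p was under 0.05, and the red line is the list's median. The listed acinar genes (median 2.37), the other acinar genes (1.68) and the red blood cell genes (3.37) lie to the right, and the remaining lists have medians between -0.12 and 0.38.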

How the data were processed

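RNA of islets from 16 samples was sequenced as 150-base pairs. Per the submitters' processing notes, TopHat2, limma and the build GRCm38 were used; versions, the counting tool and the low-count filter are not stated there. The authors deposited, per the file headers, log2 fold changes and mean log2 expression (voom and limma output, read as log2 CPM), t and log-odds scores, and p-values with adjusted p-values and q-values. The deposited adjusted p was checked to be Benjamini-Hochberg over all 10208 rows, and p-values followed t at 16.1 degrees of freedom.

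From these, standard errors, 95% intervals, estimated group levels (mean and fold change, 7 and 9 samples) and levels per kilobase of GENCODE M21 exon union were computed in Python 3.11.15 with scipy 1.17.1. Of the rows, 10190 matched by ID. Shared stretches of 75 bases came from GENCODE transcripts. Genes were called at an adjusted p under 0.05; recalculated adjusted p kept the standard errors. The members and lists were chosen with earlier results of these data known. Every member with a row is named, and 3 genes of each other list by smallest p, of which 1 is not reported here; other genes were chosen after their values were seen. Other thresholds, filters, scalings and lengths were tried. Depth per sample is unknown.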

Additional observations from a re-analysis of the deposited data

How the results depend on the processing

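The number of acinar genes that rose, 29 of 30, depended on the stringency of the call. At an adjusted p under 0.01, 9 passed, and with Holm adjustment of limma's p over all genes 0 did, while all 30 were under an unadjusted p of 0.05. With an adjusted p under 0.1 all 30 passed, Ctrc included. The shares of all genes passing these stricter or looser cut-offs are not given here, so these counts describe the 30 only. The count was 28 with a log2 fold change of at least 1, and 27 with fold changes centred on the median ribosomal protein gene or with summed expression of both groups equal, where Gatm and Try10 were lost. Those shifts were 0.07 and 0.14 log2 units and took the share of all genes called higher from 17.6% to 12.1% and 8.42%. Under each filter, scaling and summary tried, the median log2 fold change lay between 2.23 and 2.45, no direction turned, and none of the 30 fell. Without trypsinogens and amylases 22 of 23 rose. The restriction to genes with a Cre-T level at or above the table's median was chosen after seeing the data. No symbol of the list repeated, so the rule for repeats changed nothing. With the longest transcript as length, the median level per kilobase was 8.47 in place of 8.19. No paired analysis was possible because the deposited table holds no values per sample, and for the same reason no sample could be left out.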
